A study of Mus musculus with 6 samples.

Results

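RNA of 10 genes of the EGF and FGF growth factor systems was followed in cultured mouse neural progenitor cells (NPCs), which divide and can give rise to neurons and glia. The genes were the ErbB receptor genes Egfr, Erbb2 and Erbb3, the EGF family ligand genes Hbegf and Tgfa, the FGF receptor genes Fgfr1, Fgfr2 and Fgfr3, and the FGF ligand genes Fgf1 and Fgf2. They were chosen by name, and all 10 were found by Ensembl identifier among the 53801 genes of the count files. The cells came from embryonic stem cells of a BL/6J x CAST-EiJ background, were differentiated into NPCs and subcloned, and carried a SPEN-AID degron, which lets added auxin, a plant hormone, target the tagged SPEN protein, an RNA-binding repressor, for degradation. The 3 groups were untreated cells, cells after 24 h of auxin and cells after 48 h of auxin at 500 uM, with n = 2 libraries each. Each group held 1 library of subclone 30 and 1 of subclone 31, so each subclone had 1 library at a time. The untreated cells carried the degron too, and auxin on cells without it was not analysed here. In every group the N2B27 medium held EGF and FGF at 10 ng/ml each, so the ligand RNA measured is what the cells made beside the protein supplied.

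ErbB receptors are tyrosine kinases of the cell surface that bind EGF family ligands and signal as pairs. FGF receptors are tyrosine kinases that bind FGF together with heparan sulfate chains. Both pass their signal through adaptor proteins to the RAS, RAF, MEK and ERK kinases and to PI3K and AKT, and NPC cultures are commonly kept dividing by adding EGF and FGF to the medium.

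The smallest library (untreated, clone 30) held 24603816 counts and the largest (24 h, clone 31) 43008978, where 3 counts equal 0.122 and 0.070 CPM. CPM values are counts scaled by library total and TMM, and a level per length is that value divided by exon length in kb. Spen RNA, the gene of the tagged protein, stood at 259 and 200 CPM at 48 h in clones 31 and 30, against 116 and 92.4 CPM untreated, and RNA says nothing of how much tagged protein was lost. The NPC list had summed levels of 4298 to 5423 CPM untreated, 5093 to 5964 CPM at 24 h and 5799 to 5987 CPM at 48 h, and Sox1 was at or under 3 summed counts in every group. The treatment groups were tested with edgeR on treatment group alone and with the clone as a block. The first called 0 genes in all 3 comparisons at an adjusted p of 0.05, and the second called 0 genes at 24 h, 2790 at 48 h and 4185 between 24 h and 48 h. Nothing in the labels says that the libraries of a group came from separate cultures of a clone, so p-values measure the spread between these libraries.

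After 48 h of auxin, RNA of the receptor genes Egfr, Fgfr3 and, from a low level, Fgfr2 was higher than in untreated cells, and RNA of the ligand gene Tgfa was higher as well. Hbegf and Fgf1 RNA was lower. With the clone as a block, Egfr rose 1.83-fold, Fgfr3 2.96-fold and Tgfa 1.81-fold, while Hbegf was 2.59-fold and Fgf1 2.08-fold lower. Fgfr1, Erbb2 and Fgf2 were not called, and Erbb3 was at the detection limit.

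Among the genes that rose at 48 h, 4 have a RefSeq promoter window that can be shown, and they are printed because these genes moved together while their promoters differ in base composition. Each runs from 250 bases before to 50 bases after the RefSeq start (GRCm38.p6), 5′ to 3′ on the gene's strand, and Fgfr3 has a further window that is not shown. Capitals mark GGGCGG (the GC box bound by SP1) or TGGGAA (the core bound by RBPJ, the DNA-binding protein of the Notch pathway with which SPEN can act as a corepressor), each on either strand.
Egfr, + strand, chr11:16751953-16752252: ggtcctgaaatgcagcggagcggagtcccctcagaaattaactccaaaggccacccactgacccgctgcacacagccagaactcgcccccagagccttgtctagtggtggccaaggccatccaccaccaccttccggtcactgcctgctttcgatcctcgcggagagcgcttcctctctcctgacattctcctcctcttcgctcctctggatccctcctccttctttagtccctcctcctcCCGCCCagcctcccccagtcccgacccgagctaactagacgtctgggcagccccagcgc
Fgfr3, + strand, chr5:33721474-33721773: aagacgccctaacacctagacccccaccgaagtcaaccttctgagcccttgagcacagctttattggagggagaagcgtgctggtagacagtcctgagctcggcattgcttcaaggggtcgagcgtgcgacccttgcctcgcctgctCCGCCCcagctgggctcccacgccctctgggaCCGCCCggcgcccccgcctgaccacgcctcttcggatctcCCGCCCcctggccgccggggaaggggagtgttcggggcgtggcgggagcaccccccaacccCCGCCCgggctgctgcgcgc
Fgfr2, − strand, chr7:130266759-130267058: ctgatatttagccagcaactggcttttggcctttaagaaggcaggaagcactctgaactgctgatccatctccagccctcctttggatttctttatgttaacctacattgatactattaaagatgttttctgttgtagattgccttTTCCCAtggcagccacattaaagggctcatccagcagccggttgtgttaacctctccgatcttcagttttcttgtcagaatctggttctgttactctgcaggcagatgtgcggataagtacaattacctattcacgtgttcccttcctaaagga
Tgfa, + strand, chr6:86194972-86195271: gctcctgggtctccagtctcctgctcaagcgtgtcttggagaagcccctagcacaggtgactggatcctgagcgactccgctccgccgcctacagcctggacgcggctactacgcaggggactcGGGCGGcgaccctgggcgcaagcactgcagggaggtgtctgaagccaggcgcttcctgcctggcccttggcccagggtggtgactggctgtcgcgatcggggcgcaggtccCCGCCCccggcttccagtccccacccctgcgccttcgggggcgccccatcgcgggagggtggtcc

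The Egfr, Fgfr3 and Tgfa windows were 62.3%, 69.7% and 70.7% G or C and held 1, 4 and 2 GC boxes. The Fgfr2 window was 43.7% G or C and held no GC box and 1 TGGGAA match. Across the 32851 windows of the same length, the median was 52.7% G or C, 35.7% held a GC box and 25.6% held TGGGAA. Searches on both strands for TATAAA (13.6% of all windows) and for the AP-1 motif TGANTCA (7.8%) found no match in these 4 windows, and CCGGAAG, a core bound by ETS factors (8.9%), was found once, in that of Egfr.

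Egfr (ENSMUSG00000020122, chromosome 11, 16752203 to 16918158, mm10) encodes the receptor for EGF, TGF-alpha and HB-EGF. In clone 31 it stood at 345 CPM untreated, 375 CPM with 24 h and 703 CPM with 48 h of auxin, and in clone 30 at 374, 391 and 611 CPM. Both 48 h libraries lay above all others, and the 24 h libraries lay only just above the untreated ones. With the clone as a block, the log2 change at 48 h against untreated was 0.87 ± 0.12 (SE). Auxin changes given with an SE below are from that fit too. Within the clones the change was 1.03 in clone 31 and 0.71 in clone 30. In edgeR the adjusted p was 0.0238 with the clone as a block and 0.139 on treatment group alone. Fewer cells of a type and less RNA per cell cannot be told apart in these bulk libraries, for this gene or any below.

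Erbb2 (ENSMUSG00000062312, chromosome 11, 98412470 to 98437716) encodes the ErbB receptor that has no known ligand and pairs with the others. In clone 31 it stood at 69.0 CPM untreated, 74.3 CPM with 24 h and 64.3 CPM with 48 h of auxin, and in clone 30 at 41.9, 37.9 and 46.5 CPM. The times overlapped and the clones did not, and all 3 auxin comparisons gave log2 values within 0.1 of 0 on treatment group alone. At 48 h its edgeR adjusted p was 0.899 with the block.

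Erbb3 (ENSMUSG00000018166, chromosome 10, 128567523 to 128589652) encodes a neuregulin receptor with little kinase activity of its own. It had 3 and 6 counts at 48 h in clones 31 and 30, 1 and 8 counts at 24 h and 1 and 4 counts untreated. It did not pass the filter on low counts and was not tested. The ratio of the depth-scaled summed counts, 48 h over untreated, was 2.03 with a 95% counting interval of 0.612 to 7.72, which spans 1, so no difference was detectable at this depth.

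Fgfr1 (ENSMUSG00000031565, chromosome 8, 25513654 to 25575718) had the highest level per length among Fgfr1, Fgfr2 and Fgfr3 in untreated cells. In clone 31 it stood at 292 CPM untreated, 282 CPM with 24 h and 244 CPM with 48 h of auxin, and in clone 30 at 358, 376 and 307 CPM. In each clone the 48 h library was the lowest, but the groups overlapped. The log2 change at 48 h was -0.24 ± 0.09, with -0.26 in clone 31 and -0.22 in clone 30, and it was not called (edgeR adjusted p = 0.119 with the block, 0.565 on treatment group alone).

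Fgfr2 (ENSMUSG00000030849, chromosome 7, 130162451 to 133123350) stood in clone 31 at 24.6 CPM untreated, 26.6 CPM with 24 h and 110 CPM with 48 h of auxin, and in clone 30 at 39.3, 34.7 and 76.3 CPM. Clone 31 had the lower level of the pair untreated and at 24 h and the higher one at 48 h. The log2 change at 48 h was 1.58 ± 0.29, with 2.17 in clone 31 and 0.96 in clone 30 (edgeR adjusted p = 0.0282 with the block, 0.139 on treatment group alone). The annotated span of this gene reaches far upstream and shares 314 bp of exon (3.0% of its exon length) with Ctbp2 on the same strand.

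Fgfr3 (ENSMUSG00000054252, chromosome 5, 33721674 to 33737068), which in the brain is known from progenitors and astrocytes, stood in clone 31 at 108 CPM untreated, 196 CPM with 24 h and 465 CPM with 48 h of auxin, and in clone 30 at 154, 147 and 323 CPM. Clone 31 was higher at each later time, while clone 30 was higher at 48 h and near its untreated level at 24 h. The log2 change at 48 h was 1.56 ± 0.26, with 2.11 in clone 31 and 1.07 in clone 30 (edgeR adjusted p = 0.0258 with the block, 0.139 on treatment group alone).

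**Figure D1:**
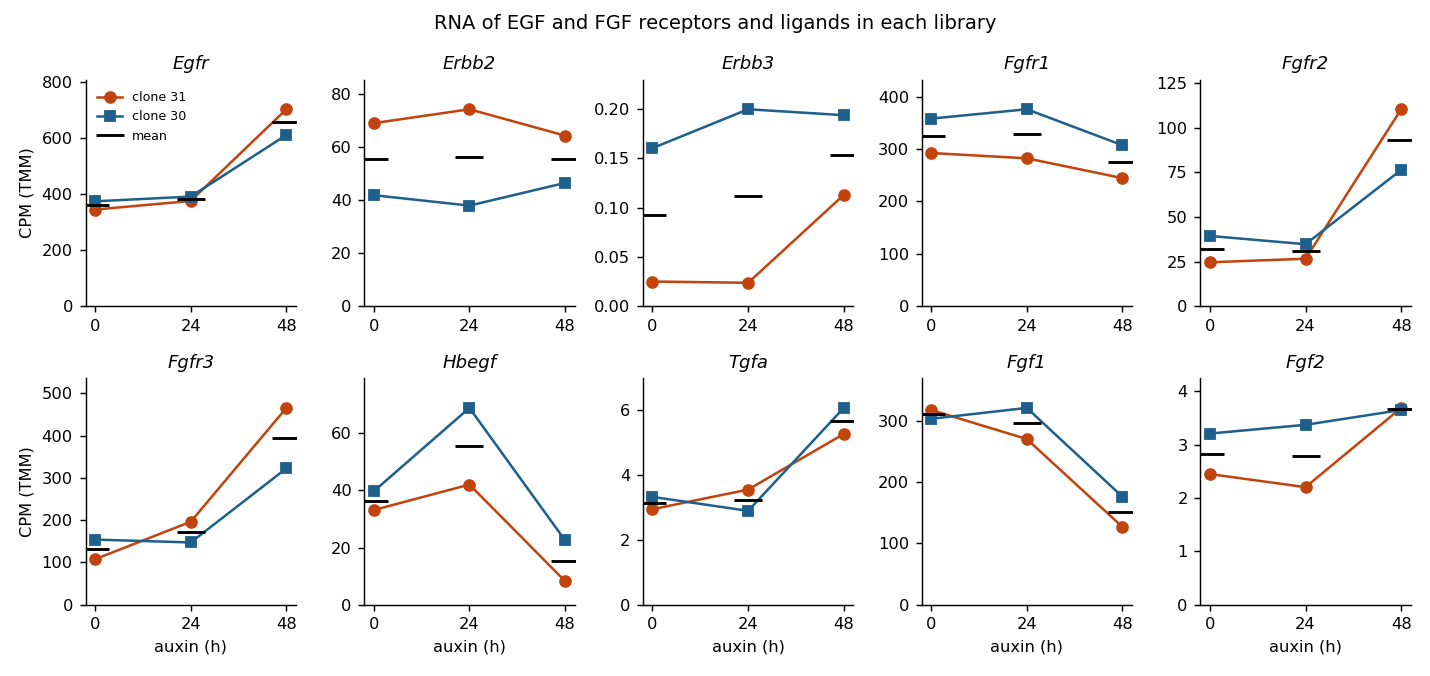
CPM (TMM, linear axes starting at 0) of the 10 receptor and ligand genes against hours of auxin, with a line for each clone (1 library a point) and a bar at the group mean. Egfr, Fgfr2, Fgfr3 and Tgfa are highest at 48 h in both clones, Hbegf and Fgf1 lowest, Erbb2 is split by clone at all 3 times, and Erbb3 stays at or below 0.2 CPM.

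Per length, the shares of Fgfr1, Fgfr2 and Fgfr3 in their summed level differed between the times. In clone 31 Fgfr1 made up 62.9% of that sum untreated, 48.8% at 24 h and 24.6% at 48 h, and in clone 30 it made up 58.8%, 61.4% and 37.2%. The share of Fgfr3 in clone 31 was 32.0% untreated, 46.8% at 24 h and 64.7% at 48 h, and in clone 30 it was 35.0%, 33.2% and 53.9%. Fgfr2 made up 10.6% and 8.85% at 48 h in clones 31 and 30, against 5.06% and 6.18% untreated. The ratio of Fgfr3 to Fgfr1 per length was 2.63 and 1.45 at 48 h in clones 31 and 30, against 0.509 and 0.594 untreated, so the order of the 2 genes was reversed in both clones. A ratio within a library does not depend on the scaling between libraries.

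**Figure D2:**
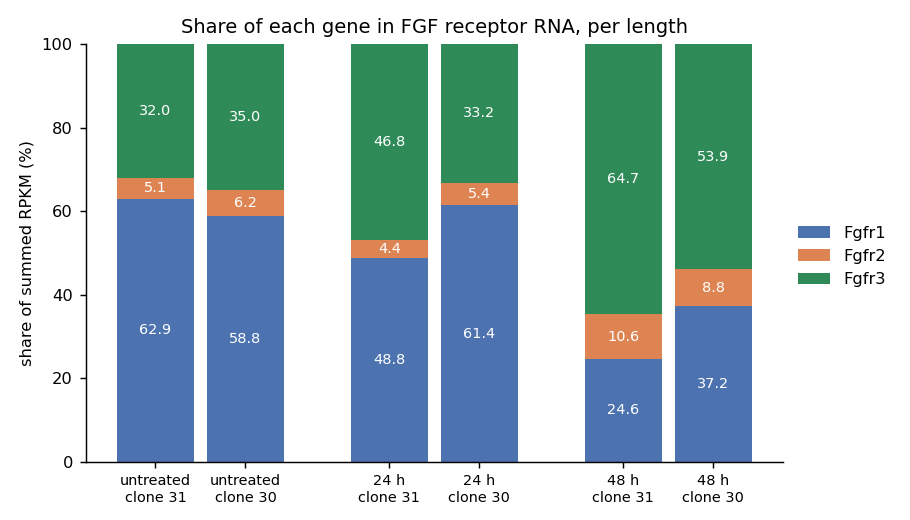
Share (%) of Fgfr1, Fgfr2 and Fgfr3 in their summed level per length (RPKM), 1 bar a library, by time and clone. Fgfr1 holds 58.8% to 62.9% untreated and 24.6% to 37.2% at 48 h, and clone 31 at 24 h already stands at 48.8%.

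Hbegf (ENSMUSG00000024486, chromosome 18, 36504929 to 36515805) encodes HB-EGF, a membrane-anchored ligand of EGFR that is released by shedding. In clone 31 it stood at 33.2 CPM untreated, 42.1 CPM with 24 h and 8.29 CPM with 48 h of auxin, and in clone 30 at 39.7, 68.9 and 22.6 CPM. Both clones were higher at 24 h than untreated and lower than untreated at 48 h. The log2 change at 48 h was -1.37 ± 0.27, with -2.00 in clone 31 and -0.82 in clone 30 (edgeR adjusted p = 0.0306 with the block, 0.247 on treatment group alone).

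Tgfa (ENSMUSG00000029999, chromosome 6, 86195223 to 86275719) encodes TGF-alpha, another EGFR ligand. It was low throughout. In clone 31 it stood at 2.95 CPM untreated, 3.56 CPM with 24 h and 5.27 CPM with 48 h of auxin, and in clone 30 at 3.33, 2.90 and 6.08 CPM. Its log2 change at 48 h was 0.86 ± 0.21, with 0.84 in clone 31 and 0.87 in clone 30 (edgeR adjusted p = 0.0446 with the block, 0.169 on treatment group alone). Per length, Hbegf stood above Tgfa by a ratio of 4.30 and 10.2 at 48 h in clones 31 and 30, against 30.7 and 32.6 untreated.

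Fgf1 (ENSMUSG00000036585, chromosome 18, 38838673 to 38929404) encodes acidic FGF, which binds all FGF receptors and has no signal peptide. In clone 31 it stood at 317 CPM untreated, 270 CPM with 24 h and 127 CPM with 48 h of auxin, and in clone 30 at 303, 321 and 176 CPM. The 48 h libraries lay below all others. The log2 change at 48 h was -1.06 ± 0.14, with -1.32 in clone 31 and -0.78 in clone 30 (edgeR adjusted p = 0.0238 with the block, 0.139 on treatment group alone).

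Fgf2 (ENSMUSG00000037225, chromosome 3, 37348346 to 37410108) encodes basic FGF. It stood in clone 31 at 2.45 CPM untreated, 2.21 CPM with 24 h and 3.69 CPM with 48 h of auxin, and in clone 30 at 3.21, 3.38 and 3.65 CPM. The 48 h libraries lay just above all others, and the log2 change of 0.39 ± 0.23 was not called (edgeR adjusted p = 0.265 with the block, 0.548 on treatment group alone). Its exons overlap those of Nudt6 on the opposite strand over 640 bp (9.4% of its exon length), and those of Fgfr3 overlap G630022F23Rik on the opposite strand over 998 bp (13.9%). The authors counted by strand, per the file headers.

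Counted together at 48 h against untreated, 4 of the 9 tested genes rose and 2 fell with the clone as a block, where 17.4% of all 16007 genes tested were called (8.35% higher and 9.08% lower). On treatment group alone none of the 9 was called by edgeR, which called 0 genes in all and had 3311 at an unadjusted p of 0.05. DESeq2, fitted the same way, called 1669 genes (10.4%) and 5 of the 9, all of the 6 but Hbegf (DESeq2 adjusted p = 0.0838), and limma voom on treatment group alone called 0. Both 48 h libraries lay outside the untreated range for 7 of the 9 genes, and this held for 51.4% of all genes tested. With the block, the median log2 change was 0.39 over the 9 genes and 0.02 over all genes.

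The 6 calls rest on a few libraries. Without the untreated library of clone 31, none of the 6 was called with the block (edgeR adjusted p from 0.0746 to 0.278), and 6 genes were called in all. Without either 24 h library, Egfr, Fgfr3 and Fgf1 remained called. Without the 48 h library of clone 31 all but Fgfr3 remained (edgeR adjusted p = 0.0652), without the untreated library of clone 30 all but Tgfa (edgeR adjusted p = 0.0922), and without the 48 h library of clone 30 all 6 did. Without the 24 h libraries altogether, on the 4 libraries compared, none was called (edgeR adjusted p from 0.0641 to 0.102 with the block). The direction was the same in all of these fits, and the estimate that moved most was that of Fgfr2, which was 1.01 when 48 h clone 31 was left out and 2.10 when 48 h clone 30 was.

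**Figure D3:**
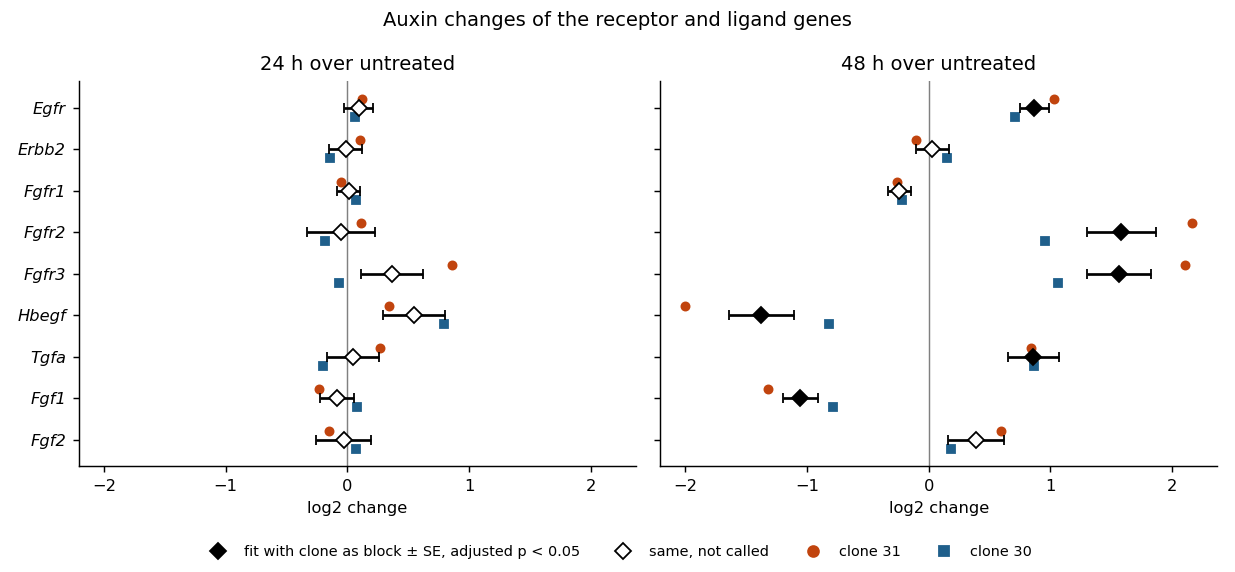
Log2 change of the 9 tested genes at 24 h (left) and 48 h (right) over untreated. Diamonds are estimates with the clone as a block, with bars of 1 SE, filled at an edgeR adjusted p under 0.05; circles and squares are the changes within clones 31 and 30. At 24 h no diamond is filled, and at 48 h the 6 filled ones run from -1.37 (Hbegf) to 1.58 (Fgfr2).

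Markers of other cell types moved over the same comparison. The astrocyte list had summed levels of 998 to 1269 CPM at 48 h, against 465 to 662 CPM untreated, and 4 of its 6 tested genes rose with the block, beside 8.35% of all genes, among them Aldoc, S100b and Sox9, while Gjb6 had 0 counts. Leaving out untreated clone 31 gave 0 higher, either 24 h library or 48 h clone 31 gave 3, untreated clone 30 gave 5 and 48 h clone 30 gave 6. The oligodendrocyte lineage list had 956 to 1080 CPM at 48 h, against 762 to 859 CPM untreated. Of its 6 tested genes 3 rose with the block, beside 8.35% of all genes, among them Cnp and Pdgfra. Olig2 was not called (log2 -0.27), with 460 and 619 CPM at 48 h in clones 31 and 30, against 694 and 603 CPM untreated. Cspg4 was not called either (log2 0.09), and Mog stayed at or under 3 summed counts. In the neuron list 5 of the 7 tested genes had values above 0, and the 1 called gene, Syt1, fell. Syt1 stood at 0.678 and 0.259 CPM at 48 h in clones 31 and 30, against 6.10 and 0.642 CPM untreated. The neuron list summed to 1003 to 1082 CPM at 48 h, against 852 to 1133 CPM untreated. Most of that sum was Map2, with 964 and 1043 CPM at 48 h in clones 31 and 30. In the other lists 1 gene each rose, Sox2 of the NPC list, Col1a1 of the mesenchymal, Nanog of the pluripotent and Kdr of the endothelial list, and no endoderm gene passed the filter. At 48 h Col1a1 stood at only 2.71 and 3.14 CPM in clones 31 and 30, Nanog at 3.65 and 2.52 CPM and Kdr at 2.45 and 5.46 CPM. Values above 0 were had by 8 of 9 tested NPC genes, 3 of 6 mesenchymal, 1 of 2 pluripotent and 1 of 2 endothelial genes. Nes of the NPC list had a value below 0 (log2 -0.58) and was not called. It stood at 648 and 1136 CPM at 48 h in clones 31 and 30, against 1275 and 1289 CPM untreated. Without untreated clone 31, 1 oligodendrocyte lineage gene and 0 genes of the neuron, NPC, mesenchymal, pluripotent and endothelial lists were called, and without 48 h clone 30 the NPC list had 8 higher and 1 lower of 9. Without either 24 h library, the mesenchymal, pluripotent and endothelial lists had 0 called. Sox2, Sox9, Aldoc, S100b and Cnp are also made by progenitors or other cells, and the part of these shifts in the receptor and ligand results was not tested.

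At 24 h against untreated, edgeR called none of the 9 genes and 0 genes in all, 0% of those tested, in either fit, with 240 genes at an unadjusted p of 0.05 on treatment group alone and 988 with the block. DESeq2 with the block called 41 genes (0.256%), none of the 9, DESeq2 on treatment group alone called 6, and limma voom on treatment group alone called 0. Hbegf had the largest value, a log2 change of 0.55 ± 0.25 with the block, 0.34 in clone 31 and 0.79 in clone 30 (edgeR adjusted p = 0.837). Without either 48 h library the same fit called it (edgeR adjusted p = 0.0476 and 0.0493), and leaving out untreated clone 30 or untreated clone 31 gave estimates of 0.19 or 0.97. Fgfr3 had 0.37 ± 0.25 with the block, 0.86 in clone 31 and -0.07 in clone 30 (edgeR adjusted p = 0.889). The other 7 genes gave log2 values within 0.1 of 0.

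Between 24 h and 48 h the same 6 genes were called, 4 higher and 2 lower, where 26.1% of all genes were called with the block (12.3% higher and 13.9% lower). Upper-quartile scaling with the block turned that split to 2549 higher and 1726 lower, against 1961 higher and 2224 lower with TMM, and shifted the median of all genes by 0.11 in log2. The 2 comparisons at 48 h share the 48 h libraries, so they are not separate evidence. The log2 change from 24 h to 48 h was 0.78 ± 0.12 for Egfr, 1.63 ± 0.28 for Fgfr2, 1.19 ± 0.25 for Fgfr3 and 0.81 ± 0.21 for Tgfa. For Hbegf it was -1.92 ± 0.27, with -2.34 in clone 31 and -1.61 in clone 30, and for Fgf1 -0.97 ± 0.14. The edgeR adjusted p of the 6 ran from 0.0162 to 0.0377 with the block and from 0.086 to 0.131 on treatment group alone, where edgeR called 0 genes in all (3997 at an unadjusted p of 0.05), DESeq2 2530 and limma voom 0. The fit with the block called 0 genes when 24 h clone 30 was left out and 3 genes, none of the 9, when 24 h clone 31 was.

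The order of the genes by level per length differed between the times. In untreated cells Fgf1 led at 66.8 RPKM, followed by Fgfr1 at 32.9 and Egfr at 31.7 RPKM, whose ranges over the 2 libraries overlapped, then Fgfr3 at 18.3 and Hbegf at 15.4 RPKM, which overlapped too. Erbb2 followed at 10.6 RPKM, Fgfr2 at 3.09 RPKM, Tgfa at 0.484 and Fgf2 at 0.417 RPKM, again overlapping, and Erbb3 at 0.0154 RPKM. At 24 h the order differed only in that Egfr stood at 33.9 RPKM and Fgfr1 at 33.3 RPKM, which overlapped, as did Fgfr3 at 24.0 and Hbegf at 23.4 RPKM, and Tgfa and Fgf2. At 48 h Egfr at 58.0 and Fgfr3 at 55.0 RPKM overlapped at the top, Fgf1 at 32.6 and Fgfr1 at 27.9 RPKM overlapped next, and Erbb2 at 10.6, Fgfr2 at 9.03 and Hbegf at 6.50 RPKM overlapped after them. Tgfa at 0.875, Fgf2 at 0.542 and Erbb3 at 0.0255 RPKM came last without overlap. The 6 receptor genes summed to 175 and 146 RPKM at 48 h in clones 31 and 30, against 90.7 and 103 RPKM untreated. The 4 ligand genes summed to 32.1 and 48.9 RPKM at 48 h in clones 31 and 30, against 83.1 and 82.9 RPKM untreated.

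Clone 31 was compared with clone 30 over the 3 times, with treatment group as a term. Erbb2 was higher in clone 31 at every time, by 0.72 untreated, 0.97 at 24 h and 0.47 at 48 h in log2, and the fitted difference was 0.72 ± 0.11 (edgeR adjusted p = 0.0131). Fgfr1 was lower in clone 31 at every time, with a fitted difference of -0.35 ± 0.07 (edgeR adjusted p = 0.0317). These were the 2 called genes of the 9, where 16.2% of the 15492 genes tested were called (7.58% higher and 8.58% lower; 1174 higher and 1329 lower, and 910 and 1609 when scaled by total counts). Both calls were lost without either 24 h library (edgeR adjusted p from 0.0777 to 0.0831 for Erbb2 and from 0.364 to 0.378 for Fgfr1), and that of Fgfr1 also without either untreated library (edgeR adjusted p = 0.0875 and 0.0884). Hbegf was lower in clone 31 at every time, with -0.78 ± 0.22, and was not called (edgeR adjusted p = 0.0646). It was called in 1 of 7 other settings and in 4 of the fits that left out 1 library, which gave -1.05 to -0.51. Some marker levels differed between the clones too, but not all in the same direction. In the mesenchymal list Col3a1 stood at 24.7 to 35.7 CPM in clone 31, against 0.938 to 1.28 CPM in clone 30. Acta2 of that list stood at 0.0949 to 0.225 CPM in clone 31, against 0.45 to 0.763 CPM in clone 30, and Col1a1 overlapped between the clones. The part of such marker differences was not tested.

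Whether the clone difference at 48 h departed from that over the other libraries was tested with a clone term within the 48 h group, on 1 residual degree of freedom. The term compares 1 library of each clone at 48 h, and the spread comes from the untreated and 24 h libraries alone, so the 48 h libraries are assumed to vary like them. A clone effect at 48 h and variation between single libraries cannot be told apart. On that assumption Fgfr2 passed, with 1.06 ± 0.15 in log2 (edgeR adjusted p = 0.0142), where 4.47% of all genes were called. Its clone difference was 0.53 at 48 h, against -0.39 at 24 h and -0.68 untreated. Hbegf was next with -0.95 ± 0.22 and just missed the threshold (edgeR adjusted p = 0.0512), and it was called in 4 of 7 other settings while Fgfr2 was called in all 7. The other 7 genes were not called, with edgeR adjusted p from 0.175 for Erbb2 to 0.942 for Fgfr1.

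**Figure D4:**
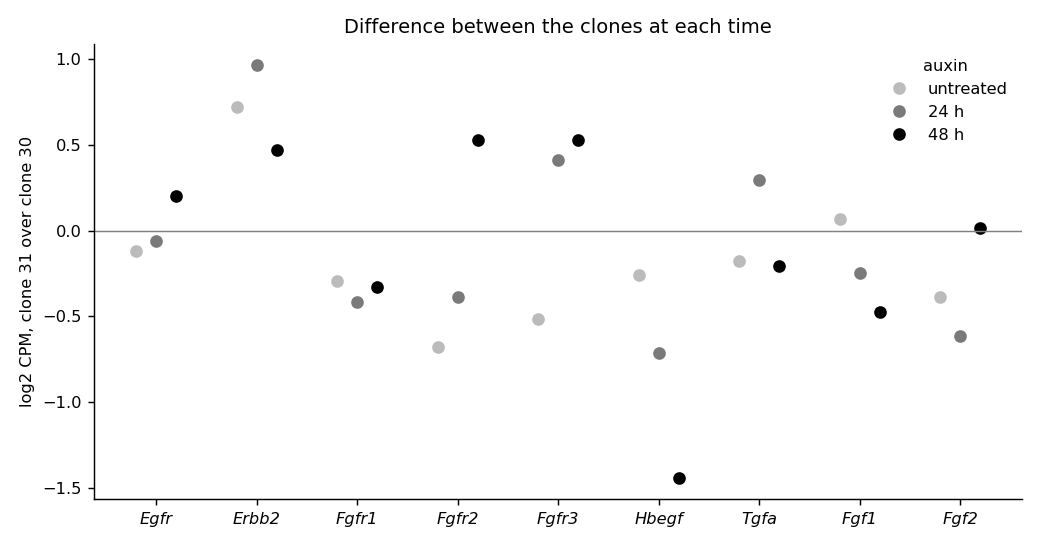
Log2 ratio of CPM in clone 31 over clone 30 for the 9 tested genes, 1 point for each time. Erbb2 lies above 0 and Fgfr1 and Hbegf below 0 at all 3 times, and Fgfr2 crosses 0, with 0.53 at 48 h.

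Around the 10 genes, 117 other genes of both pathways in 10 lists were read in the same fits, of which 99 passed the filter. With the clone as a block, 11 were higher and 12 lower at 48 h against untreated, 23 of 99 beside 17.4% of all genes. Leaving out untreated clone 31 gave 0 and 0, leaving out either 24 h library 4 and 3, and leaving out 48 h clone 30 gave 24 and 30. None of the 99 was called on treatment group alone.

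Of the other ErbB receptor and EGF family ligand genes 0 of 7 tested were called at 48 h, with Areg, which encodes amphiregulin, at -0.76 and Nrg2 at -0.10. Erbb4, a neuregulin receptor gene, stood in clone 31 at 8.05 CPM untreated, 3.39 CPM with 24 h and 13.9 CPM with 48 h of auxin, and in clone 30 at 19.9, 7.22 and 23.4 CPM. At 24 h against untreated its log2 change was -1.36 ± 0.18 with the block, with -1.25 in clone 31 and -1.46 in clone 30. EdgeR did not call it (edgeR adjusted p = 0.36 with the block, 0.9998 on treatment group alone), and DESeq2 with the block did (DESeq2 adjusted p = 3.83e-06). It was 3.64-fold higher at 48 h than at 24 h (log2 1.87 ± 0.18, edgeR adjusted p = 0.0162 with the block) and not called at 48 h against untreated (log2 0.50, edgeR adjusted p = 0.0902). Of the other FGF receptor genes, Fgfrl1, a receptor without a kinase domain, stood at 173 and 170 CPM at 48 h in clones 31 and 30, against 168 and 170 CPM untreated, and was not called. Among 20 other FGF ligand genes 13 did not pass the filter, 0 of the 7 tested rose and 3 fell at 48 h, beside 9.08% of all genes lower. These were Fgf13 (-1.0), Fgf12 (-0.95) and Fgf14 (-1.62), which encode FGF homologous factors that stay inside the cell and do not act as receptor ligands. Fgf14 was near the floor, with 4 and 9 counts at 48 h in clones 31 and 30, against 21 and 21 untreated. Fgf11, the highest per length of the 7, was not called (log2 0.48). It had 38.16 and 17.17 CPM at 48 h in clones 31 and 30, against 15.35 and 22.71 CPM untreated.

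Heparan sulfate genes, whose products hold FGF at its receptor, gave 2 higher and 1 lower of 19 tested. Of all genes 8.35% were higher and 9.08% lower. Gpc2, a glypican core protein gene, rose to 21.6 and 30.8 CPM at 48 h in clones 31 and 30, against 12.8 and 13.7 CPM untreated (log2 0.96), Ext1, which encodes a chain-building enzyme, rose by 0.38, and Hs6st2, a sulfotransferase gene, fell by 0.81 on the log2 scale. Of the 7 genes for shedding of EGF ligands 1 was higher and 1 lower, beside 8.35% higher and 9.08% lower of all genes. Timp3, which encodes an inhibitor of metalloproteases, was the higher one. It had 560 and 661 CPM at 48 h in clones 31 and 30, against 167 and 315 CPM untreated (log2 1.41). Adam12, which encodes a metalloprotease, had 258 and 399 CPM at 48 h, against 639 and 744 CPM untreated (log2 -1.11). Adam9 (0.47), Adam10 (0.09), Adam17 (-0.09), Rhbdf1 (-0.56) and Rhbdf2 (0.62) of the same list were not called.

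Inside the cell, 2 of 12 adaptor genes were higher and 1 lower at 48 h, beside 8.35% higher and 9.08% lower of all genes. Gab1, a docking protein gene, stood at 242 and 228 CPM at 48 h in clones 31 and 30, against 118 and 128 CPM untreated (log2 0.94), with Plcg1 at 0.36 and Ptpn11 at -0.36. Among the RAS, RAF, MEK and ERK genes Ksr1, a scaffold gene, rose (0.46) and Hras fell (-0.75), and of 9 PI3K and AKT genes Pik3r1, which encodes a regulatory subunit, rose (0.59).

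The list of receptor restraint and turnover genes, not all of them inhibitors, gave 4 higher and 1 lower of 13, beside 8.35% higher and 9.08% lower of all genes. Il17rd, which encodes a membrane antagonist of FGF signalling, stood at 91.9 and 66.2 CPM at 48 h in clones 31 and 30, against 36.8 and 25.4 CPM untreated (log2 1.35 ± 0.09, edgeR adjusted p = 0.0238 with the block, 0.14 on treatment group alone). Lrig1 and Lrig3, of a family whose member LRIG1 lowers ErbB receptor levels, rose by 0.80 and 0.83, and Cblb, a ubiquitin ligase gene, by 0.59, while Socs5 fell (-0.56). Without the untreated library of clone 31 these counts were 0 and 0, and without either 24 h library 1 and 0.

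The feedback and output genes of ERK, which the pathway switches on, gave 0 higher and 3 lower of 12 at 48 h against untreated. Of all genes 9.08% were lower in that comparison. The median log2 change of the 12 was -0.97. Dusp4, which encodes an ERK phosphatase, stood in clone 31 at 64.8 CPM untreated, 62.1 CPM with 24 h and 6.29 CPM with 48 h of auxin, and in clone 30 at 49.0, 105 and 18.4 CPM. Its log2 change at 48 h was -2.36 ± 0.44 (edgeR adjusted p = 0.0291 with the block, 0.148 on treatment group alone). Ier3 (-1.65) and Etv5, an ETS factor gene (-1.15), were lower too, and Etv1 was the 1 gene of the 12 with a value above 0. The count of 3 was 0 without the untreated library of clone 31 or without either 24 h library, and 11 without the 48 h library of clone 30. Against 24 h, 9 of the 12 were lower at 48 h, beside 13.9% of all genes lower in that comparison, and 0 without either 24 h library. That these genes were low at 48 h was known when the list was chosen.

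**Figure D5:**
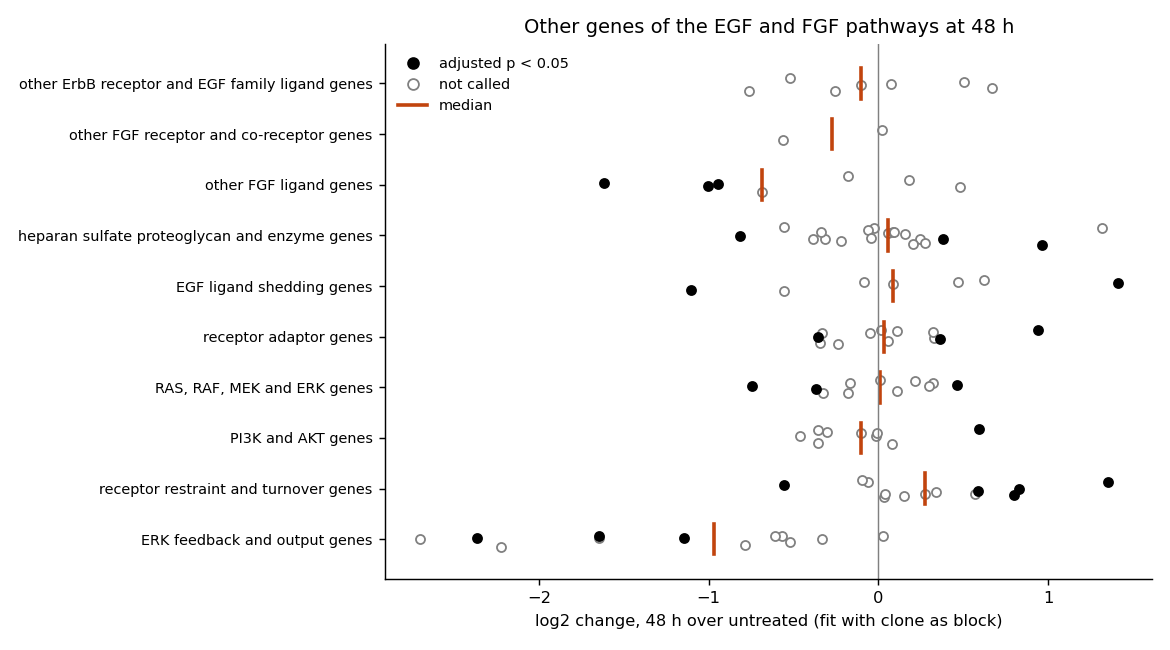
Log2 change at 48 h over untreated, with the clone as a block, of the 99 tested genes in the 10 pathway lists, 1 point a gene, filled at an edgeR adjusted p under 0.05, with a bar at each list's median. Medians lie between -0.97 (ERK feedback and output genes) and 0.27 (receptor restraint and turnover genes).

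The genes whose RNA followed Egfr most closely over the 6 libraries were Prr13, Qk, Gab1, Stat5a and Lysmd4, with Pearson correlations of log2 CPM from 0.994 to 0.997. They came from 11092 genes of at least 5 CPM on average, of which 342 were above 0.95. Those closest to Fgf1 were Tmem69, Selenos, Daam1, Carnmt1 and Metap2, from 0.993 to 0.997, with 363 genes above 0.95. The 6 libraries share their clones and the step at 48 h, so these values describe a common shape only.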

How the data were processed

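RNA of 6 libraries was sequenced as read pairs of 100 bases (TruSeq RNA kit v2, RIN above 9), per the labels' protocols. The authors deposited a raw count for each gene. It was made by featureCounts 1.6.1 with strand setting 2 on Ensembl release 92 of mm10, per the file headers. R 3.4.2 and DESeq2 stand in the submitters' processing notes as well. Exon length per gene is deposited beside the counts, and 53620 of 53801 identifiers matched a symbol.

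Counts were tested with edgeR 4.0.16 (quasi-likelihood, robust, 2-sided, TMM, filterByExpr, Benjamini-Hochberg) in R 4.3.3 over 16007 genes (15492 for the clones), with treatment group as the term. An SE is the absolute log2 change over the root of the F statistic. Libraries of a number come from 1 subclone, per the titles, and their deviations from the group means correlated at 0.803 (24 h with untreated), 0.580 (48 h with untreated) and 0.707 (48 h with 24 h), so the clone pairs them, and results are also given with it as a block. The common coefficient of variation was 0.121 with the block on 2 residual degrees of freedom and 0.271 without it on 3.

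Alternatives were DESeq2 1.42.0, limma 3.58.1 voom, DESeq2 size factors, upper-quartile and total-count scaling, a filter at 1 CPM in 2 libraries or none, the 4 libraries compared, and leaving out each library. Leaving out libraries for the pathway and marker lists was added after the data were seen. The 10 genes and all lists were chosen with earlier results of these data known. Named were the 10 genes and, from each pathway list, up to 4 called genes by smallest p, or else the 2 highest per length. At 48 h against untreated, Lrig3, Etv1, Erbb4 and Fgf11 were named after their values were seen. So were the uncalled genes of the shedding list and of the PI3K and AKT list. Some list genes are not reported by name here. For likeness, 2 was the prior count of log2 CPM. Tried on simulated data were the edgeR fits of 48 h against untreated, on treatment group alone and with the block, and the clone term at 48 h. The clone comparison, DESeq2, voom and the counting interval were not. Floors and intervals cover counting error only.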

Additional observations from a re-analysis of the deposited data

Results flagged for a closer look

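Fgfr2 had a log2 term of 1.06 for clone 31 over clone 30 at 48 h relative to the other libraries (edgeR adjusted p = 0.0142 on 1 residual degree of freedom). It rests on 1 library of each clone at 48 h, which are assumed to vary like the untreated and 24 h libraries. For 7 genes the 24 h change against untreated had opposite signs in the 2 clones. The change in clone 31 minus that in clone 30 was 0.93 in log2 for Fgfr3, 0.47 for Tgfa, 0.29 for Fgfr2 and 0.25 for Erbb2. It was -0.12 for Fgfr1, -0.31 for Fgf1 and -0.22 for Fgf2. From 24 h to 48 h Erbb2 alone of the 9 tested genes did so, with -0.50. These 8 differences at or from 24 h were not tested.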

How the results depend on the processing

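With the replicate block, 24 h against untreated gave 0 genes, and 140 on the 4 libraries compared; DESeq2 gave 6 and, with the block, 41, and leaving out 1 library gave 0 to 263. For 48 h against untreated the block gave 2790 genes, where treatment group alone gave 0. Other settings with the block gave 2811 (DESeq2 size factors), 2756 (upper quartile), 2585 (total counts), 2692 (filter at 1 CPM), 3357 (DESeq2), 2815 (voom) and 3 (4 libraries). Without the block, DESeq2 gave 1669 and no filter 216. Leaving out 1 library gave 0 to 6615. For 48 h against 24 h the block gave 4185 genes, and the same settings gave 4203, 4275, 4039, 3971, 4271, 4342 and 4156, with 2530 (DESeq2) and 833 (no filter) without it and 0 to 7449 leaving out 1 library. The clone comparison gave 696 to 4978 leaving out 1 library. The difference between clones at 48 h gave 281 (DESeq2), 2010 (no filter) and 1136 (upper quartile), against 715. The cause of these shifts was not tested.

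Of 651 alternatives to 33 values of the receptor and ligand genes, 473 kept direction and side of the threshold, 167 gained a call, 6 lost one and 5 changed sign, all 5 when 1 library was left out. Those were the 24 h change of Fgfr3 (-0.095 to 0.899) and the clone differences of Fgfr2 (-0.546 to 0.0813) and Fgfr3 (-0.0623 to 0.472). For the auxin comparisons these tallies are relative to edgeR on treatment group alone, where none of the tested receptor and ligand genes was called. Such values could gain a call but not lose one, and calls with the block count as gained. Of 12 further values within 0.1 of 0, 11 changed sign in some setting and 0 were called. Erbb3 is limited by depth, Tgfa and Fgf2 by counts of 80 to 188 a library.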
